A study of Mus musculus with 8 samples.

Results

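Mast cells and basophils are tissue and blood cells of the allergic response. They hold IgE on the surface with a high-affinity receptor made of an alpha chain that binds the antibody (Fcer1a), a beta chain that amplifies the signal (Ms4a2) and a gamma chain that carries it inward (Fcer1g), and they store histamine and proteases in granules that are released when the receptor is crosslinked. The gamma chain also serves other Fc receptors and C-type lectins of myeloid cells, so it is not particular to these lineages, and granzyme B is likewise best known from NK cells and cytotoxic T cells. In bone marrow, transcripts of some of these genes already appear in progenitors that have not matured.

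Of the 24346 gene symbols in the files, 9 were followed: the receptor chains Fcer1a, Fcer1g and Ms4a2; the granule enzymes Cpa3, Gzmb, Mcpt8, Prss34 and Cma1; and Hdc, the enzyme that makes histamine. They were taken by symbol as receptor chains and enzymes of these lineages, and they were chosen by their known roles together with earlier results of these libraries, in which the FPKM of Fcer1a was among those with the largest fall in HSCs cultured with RBCs. Which further values shaped the list is not recorded. The levels and differences of all 9 genes are therefore given as a description, with a statement of whether the limits for a call were passed. The p-value of no single one is printed, and calls among them are not independent evidence.

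The cells came from the bone marrow of wild-type mice of the C57BL/6 strain. HSCs, which the labels call LT-HSCs, were sorted as CD150+ CD48- cells of the LSK fraction, and LSK cells were sorted as lineage-negative Sca-1+ c-Kit+ cells, a mixture of HSCs and multipotent progenitors. Each was cultured for 1 day in serum-free medium, either alone or together with RBCs of C57BL/6 mice that had been leukocyte-filtered and irradiated. Remaining RBCs were lysed, CD45+ cells were sorted and full-length cDNA was sequenced, with 2 libraries in each of the 4 groups. How many animals stood behind a library is not given in the sources used here, so the spread between libraries may be technical.

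The labels were checked against marker genes. The summed FPKM (fragments per kilobase of transcript, scaled to the size of the library) of 8 HSC markers was 331 to 397 in the HSC libraries and 228 to 246 in the LSK libraries. That of 6 LSK and multipotent progenitor markers overlapped, at 941 to 1369 in the HSC libraries and 1124 to 1324 in the LSK libraries. Of the 6, Flt3, Cd48, Cd34 and Ptprc were higher in every LSK library than in any HSC library. Ly6a was lower in every LSK library, and Kit overlapped. Transcripts of the defining mast cell list (Tpsab1, Tpsb2, Mcpt4, Cma1, Mrgprb1, Mrgprb2) summed to between 0 and 0.283 FPKM in the HSC libraries and were listed at 0 in all LSK libraries, and Tpsab1, Cma1 and Mrgprb2 were at 0 in every library. The name mast cell genes thus describes what the genes are known for and not a mast cell population detected here. The defining basophil list (Mcpt8, Prss34, Cd200r3) summed to 0.677 to 2.24 FPKM in the HSC libraries, where Cd200r3 carried all or most of the sum, and to 7.57, 16.2, 72.0 and 8.74 FPKM in the LSK libraries.

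One library stood apart in a gene of a related lineage. The second library of HSCs without RBCs held 45.7 FPKM of Prg2, the eosinophil granule major basic protein, against 0.108 to 0.778 in the other 7, and its summed level of 6 eosinophil genes was 50.1 FPKM against 0.658 to 4.08. Prg2 made up most of that sum, on 346 reads. Epx, eosinophil peroxidase, and Prg3 were above 0 in that library alone, at 0.732 and 3.36 FPKM. The reads behind a gene above 0 in only 1 library cannot be told from the steps between its values. Siglecf was at its lowest level there, 0.225 FPKM. Il5ra lay within the range of the other libraries, and Ear6 was 0 in every library. Differences that rest on HSCs without RBCs were therefore also computed without that library. Red cell transcripts (6 of 8 listed genes in the files) summed to 1.15 to 2.03 FPKM in the 4 libraries without RBCs and to 55.8 to 123 FPKM in the 4 with RBCs, and 10 neutrophil genes summed to 14 and 10.3 FPKM in HSCs, 256 and 46.7 in HSCs with RBCs, 162 and 252 in LSK cells, and 649 and 428 in LSK cells with RBCs. The part of these transcripts in the results was not tested.

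Promoter sequences of the genes are shown first, because lineage genes of mast cells and basophils are known to be driven by GATA factors and both Gata2 and Gata1 were expressed in these libraries. The 250 bases before the RefSeq start (GRCm38.p6) were read for all 9 genes on the strand of the gene. Capitals mark AGATAA or TGATAA or AGATAG or TGATAG on either strand, so that TTATCT is AGATAA read on the other strand. Printed are the promoters of 4 genes: that of Fcer1a, the gene with the largest difference between HSCs with and without RBCs, that of the beta chain with 3 GATA words, and those of Cpa3 and Prss34, in which the word lies close to the start.
Fcer1a, chr1:173227230-173227479, minus strand: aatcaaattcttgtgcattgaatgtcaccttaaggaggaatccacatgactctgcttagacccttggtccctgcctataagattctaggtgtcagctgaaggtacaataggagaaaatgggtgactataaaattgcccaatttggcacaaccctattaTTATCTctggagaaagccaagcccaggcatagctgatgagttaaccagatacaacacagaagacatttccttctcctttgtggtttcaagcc
Ms4a2, chr19:11623720-11623969, minus strand: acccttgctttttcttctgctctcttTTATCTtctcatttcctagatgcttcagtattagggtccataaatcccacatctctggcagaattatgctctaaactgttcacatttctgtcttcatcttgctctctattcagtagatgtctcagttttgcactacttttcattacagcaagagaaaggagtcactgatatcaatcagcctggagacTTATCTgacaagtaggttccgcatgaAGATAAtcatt
Cpa3, chr3:20242182-20242431, minus strand: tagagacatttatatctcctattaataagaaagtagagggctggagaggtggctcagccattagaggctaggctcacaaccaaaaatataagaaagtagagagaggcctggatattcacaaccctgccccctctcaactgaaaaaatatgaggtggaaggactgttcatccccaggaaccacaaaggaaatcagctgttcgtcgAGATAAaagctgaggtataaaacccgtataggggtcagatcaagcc
Prss34, chr17:25298144-25298393, plus strand: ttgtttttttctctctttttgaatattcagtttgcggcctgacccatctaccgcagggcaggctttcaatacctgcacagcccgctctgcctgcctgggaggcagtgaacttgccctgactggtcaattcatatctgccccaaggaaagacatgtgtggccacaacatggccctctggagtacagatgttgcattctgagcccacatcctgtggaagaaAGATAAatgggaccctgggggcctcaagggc

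A GATA word was found in 6 of the 9 promoters (Fcer1a, Ms4a2, Cpa3, Hdc, Prss34 and Cma1), against 26.5% of 32851 mouse promoters of the same length. Its base nearest the start lay 26 bases before the start in Prss34, 41 in Cpa3, 74 in Cma1, 87 in Fcer1a and 216 in Hdc, and Ms4a2 held words at 219, 32 and 6 bases. The RUNX word TGTGGT was found in 4 of 9 (Fcer1a, Cpa3, Gzmb, Mcpt8) against 14.05% of all promoters, the E-box CANNTG in 8 of 9 against 66.2%, and the C/EBP-type words TTGCNNAA or ATTGCNNCA in 1 of 9 (Fcer1a) against 11.1%, with both strands searched each time. These are matches of letters and were not tested as binding sites. Among the 6 was Cma1, which was at 0 in all libraries, and among the other 3 was Fcer1g, the most abundant of the 9.

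**Figure D1:**
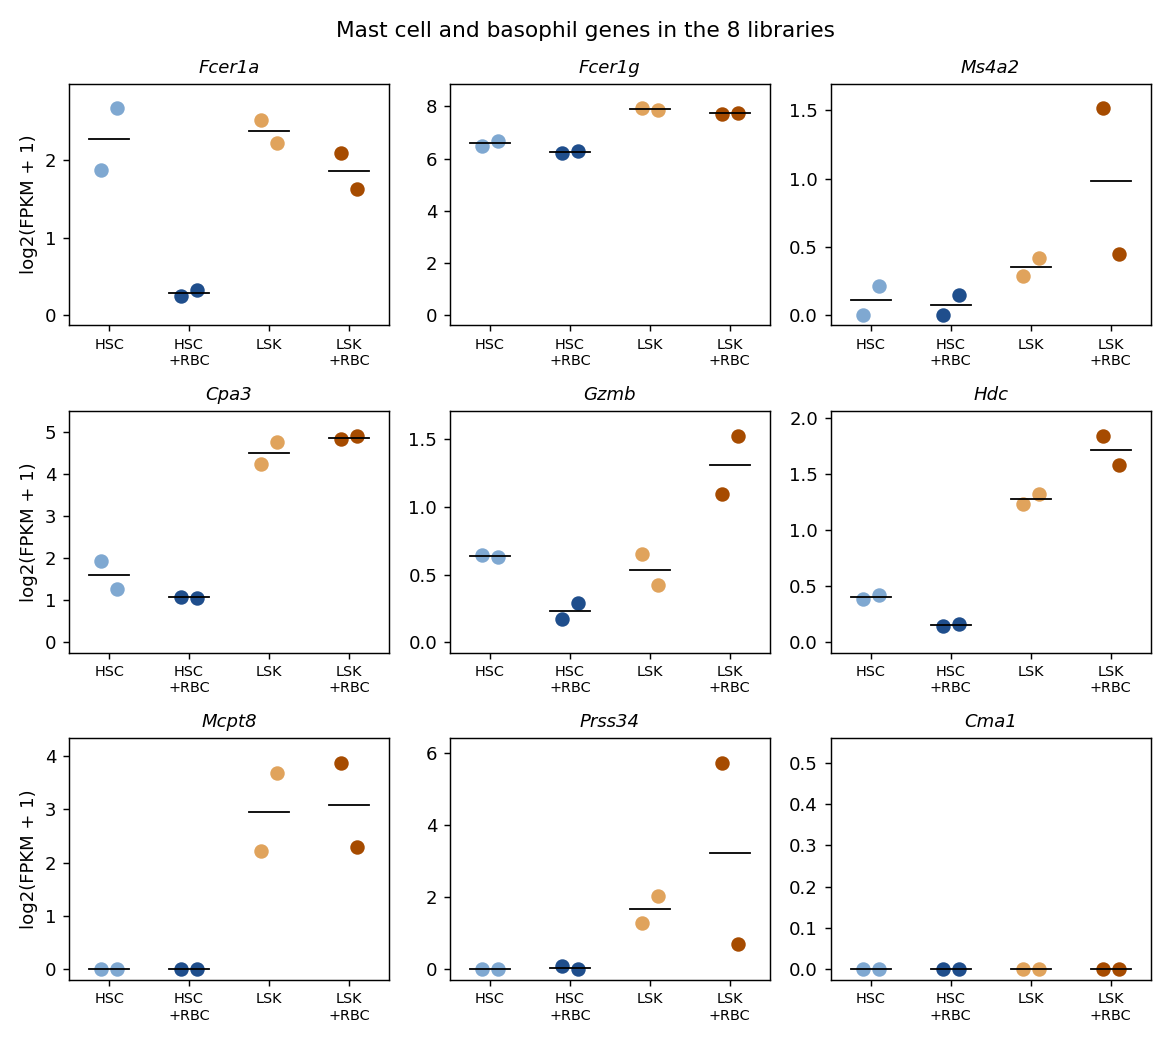
Levels of the 9 genes as log2(FPKM + 1), one panel a gene with its own vertical axis starting near 0. Each point is a library, 2 in each of the 4 groups, and the horizontal line is the group mean. Fcer1a was low in both libraries of HSCs with RBCs, Fcer1g, Cpa3, Hdc and Mcpt8 were higher in every LSK library than in any HSC library, and Cma1 was at 0 throughout.

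Fcer1a, the IgE-binding alpha chain (GRCm38, chr1:173221284-173227214, minus strand), was the gene of the list with the largest difference between HSCs with and without RBCs. Its level was 2.66 and 5.38 FPKM in HSCs, 0.187 and 0.248 in HSCs with RBCs, 4.77 and 3.70 in LSK cells, and 3.28 and 2.09 in LSK cells with RBCs. Both libraries of HSCs with RBCs thus lay below the other 6, while HSCs and LSK cells without RBCs overlapped. The group means were 4.02 ± 1.92 FPKM in HSCs, 0.218 ± 0.0431 in HSCs with RBCs, 4.24 ± 0.760 in LSK cells and 2.68 ± 0.837 in LSK cells with RBCs (SD, n = 2 each).

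The depth behind these values was small. From the step between the lowest FPKM values, Fcer1a rested on 32 and 53 reads in HSCs, 2 and 3 in HSCs with RBCs, 51 and 44 in LSK cells, and 31 and 21 in LSK cells with RBCs. These read numbers are the smallest whole numbers that fit the values, and intervals on them cover counting error only. Per unit of depth, the level in HSCs was 17.7 times that in HSCs with RBCs (exact 95% interval 7.30 to 55.9, 85 reads against 5). In LSK cells the ratio of cultures with to those without RBCs was 0.634 (0.443 to 0.898, 52 reads against 95).

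On the log2(FPKM + 1) scale, which understates changes of low genes, Fcer1a was lower by -1.99 ± 0.272 (SE) in HSCs with RBCs than without. Of the 12003 genes that reached 1 FPKM in at least 2 libraries, 17 (0.142%) were lower and 76 (0.633%) higher past the limits there (limma, Benjamini-Hochberg adjusted p under 0.05 over all genes and at least 2-fold), and Fcer1a was the 1 of the 7 listed genes in the test that was among those lower, with none among those higher. Because this contrast entered the choice of genes, nothing is read from that count. Without the HSC library rich in Prg2 the difference was -1.59, and without the other HSC library it was -2.39. When low genes were not filtered out, the limits were not passed. In LSK cells the difference was -0.52 ± 0.272, not past the limits, and the effect in HSCs minus that in LSK cells was -1.47 ± 0.384, also not past them (-1.07 without the library rich in Prg2). In bulk samples, fewer cells that carry a transcript and less of it per cell cannot be told apart.

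Fcer1g, the signalling gamma chain (chr1:171229572-171234365, minus strand), lies 1986919 bases from Fcer1a on the same chromosome and was the most abundant of the 9 genes. It stood at 89.1 and 102 FPKM in HSCs, 73.8 and 77.2 in HSCs with RBCs, 241 and 234 in LSK cells, and 209 and 215 in LSK cells with RBCs. The 4 groups did not overlap, in the order LSK cells, LSK cells with RBCs, HSCs, HSCs with RBCs. By mean level it ranked 466 among 15723 genes above 0 in LSK cells and 1704 among 17473 in HSCs with RBCs. The difference with minus without RBCs was -0.33 ± 0.0754 in HSCs and -0.16 ± 0.0754 in LSK cells on the log2 scale, both under 2-fold and not past the limits. The 7 monocyte and macrophage markers, a lineage that also uses the gamma chain, summed to 402 and 432 FPKM in HSCs, 325 and 327 in HSCs with RBCs, 358 and 273 in LSK cells, and 466 and 576 in LSK cells with RBCs, and 7 platelet markers to 203 to 243 in the HSC libraries and 96.8 to 215 in the LSK libraries. Their part in the level of Fcer1g was not tested.

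Ms4a2, the beta chain (chr19:11615523-11623719, minus strand), was close to 0. It was 0 and 0.162 FPKM in HSCs, 0 and 0.106 in HSCs with RBCs, 0.219 and 0.339 in LSK cells, and 1.86 and 0.365 in LSK cells with RBCs. One library, the first of LSK cells with RBCs, was above 1 FPKM, and the gene was not tested. The 3 chains of the receptor therefore had unlike levels: in LSK cells the gamma chain averaged 237 FPKM, the alpha chain 4.24 and the beta chain 0.279, all per length of transcript.

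Cpa3, a carboxypeptidase that mast cell granules store with their proteases (chr3:20215620-20242181, minus strand, overlapping the microRNA gene Mir7007 on the same strand), had the highest level among the enzymes in most libraries. It was 2.83 and 1.40 FPKM in HSCs, 1.10 and 1.08 in HSCs with RBCs, 17.8 and 26.0 in LSK cells, and 27.1 and 29.0 in LSK cells with RBCs. Every LSK library lay above every HSC library, on 291 to 472 reads against 18 to 52. With RBCs the 2 libraries lay below those without in HSCs and above them in LSK cells, by -0.53 ± 0.232 and 0.36 ± 0.232 on the log2 scale, neither past the limits. Without the first HSC library the difference in HSCs was -0.19, and without the second it was -0.87.

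Hdc, histidine decarboxylase (chr2:126593667-126619299, minus strand), was low and had the same order. It was 0.309 and 0.339 FPKM in HSCs, 0.104 and 0.123 in HSCs with RBCs, 1.36 and 1.5 in LSK cells, and 2.59 and 2.0 in LSK cells with RBCs. No 2 groups overlapped. By reads, HSCs were 2.83 times HSCs with RBCs (1.14 to 7.96, 19 reads against 7), LSK cells with RBCs were 1.60 times LSK cells (1.2 to 2.13, 120 against 87), and LSK cells were 4.44 times HSCs (2.68 to 7.72, 87 against 19). These intervals cover counting error only and not the spread between libraries. On the log2 scale the difference with minus without RBCs was -0.25 ± 0.179 in HSCs and 0.44 ± 0.179 in LSK cells, neither past the limits.

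Gzmb, granzyme B (chr14:56258838-56262260, minus strand), was between 0.126 and 1.88 FPKM. It was 0.562 and 0.548 in HSCs, 0.126 and 0.223 in HSCs with RBCs, 0.569 and 0.341 in LSK cells, and 1.14 and 1.88 in LSK cells with RBCs. The HSC and LSK libraries without RBCs overlapped, and those with RBCs lay on opposite sides of them. By reads, HSCs were 3.12 times HSCs with RBCs (1.19 to 9.61, 18 against 6), and LSK cells with RBCs were 3.40 times LSK cells (1.85 to 6.57, 44 against 15). Both intervals cover counting error only and not the spread between libraries. On the log2 scale the difference with minus without RBCs was -0.41 ± 0.208 in HSCs and 0.78 ± 0.208 in LSK cells, and the difference between those was -1.18 ± 0.294, none of them past the limits. The 8 NK and cytotoxic T cell markers, whose sum was mostly Nkg7, summed to 138 and 144 FPKM in LSK cells with RBCs and to 191 and 189 in LSK cells. Of the others, Klrd1 was 4.74 and 5.71 FPKM in LSK cells with RBCs and 5.95 and 5.97 in LSK cells. Klrb1c was 0.392 and 1.30 against 1.41 and 0.931, Cd3e 0.0702 and 0 against 0.0622 and 0. Cd8a was 0 and 0 against 0 and 0.0236. Ncr1 was 0.962 and 0 against 0.122 and 0, Gzma 0.259 and 0 against 0.115 and 0, and Prf1 0 and 0.352 against 0 and 0. The part of such cells in the level of Gzmb was not tested.

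Mcpt8, a granule protease known from basophils (chr14:56082166-56085273, minus strand, overlapping Mir6949 on the same strand), was listed at 0 in all 4 HSC libraries. In LSK cells it was 3.65 and 11.8 FPKM, and in LSK cells with RBCs 13.6 and 3.89, so the libraries with and without RBCs overlapped. Set against 3 reads over the HSC group, the level that a count of 0 allows, LSK cells were at least 14.9-fold higher without RBCs (46 reads against 0) and at least 16.7-fold higher with RBCs (43 against 0). The libraries were uneven, with 10 and 36 reads in LSK cells and 33 and 10 with RBCs. Leaving out the first or the second LSK library moved the bound to 22.1-fold or 6.82-fold without RBCs, and to 7.56-fold or 26.5-fold with RBCs. In LSK cells the ratio with to without RBCs was 1.08 (0.697 to 1.68). That interval covers counting error only and not the wide spread between libraries.

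Prss34, another basophil protease (chr17:25298394-25300165, plus strand), was the most uneven of the genes. It was 0 in both HSC libraries, 0.0758 and 0 FPKM in HSCs with RBCs (1 read in all), 1.44 and 3.13 in LSK cells, and 52.4 and 0.646 in LSK cells with RBCs. The first library of LSK cells with RBCs held 612 reads and the second 8, the second lying below both libraries without RBCs. The difference with minus without RBCs in LSK cells was 1.56 ± 1.2 on the log2 scale, not past the limits. Without the first library of LSK cells with RBCs it was -0.95, and without the second it was 4.07 and passed the limits. The same first library held the highest levels of Ms4a2, Mcpt8, Hdc and Cd200r3, the last at 6.01 FPKM against 0.677 to 4.2 in the other 7, and the highest neutrophil sum.

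**Figure D2:**
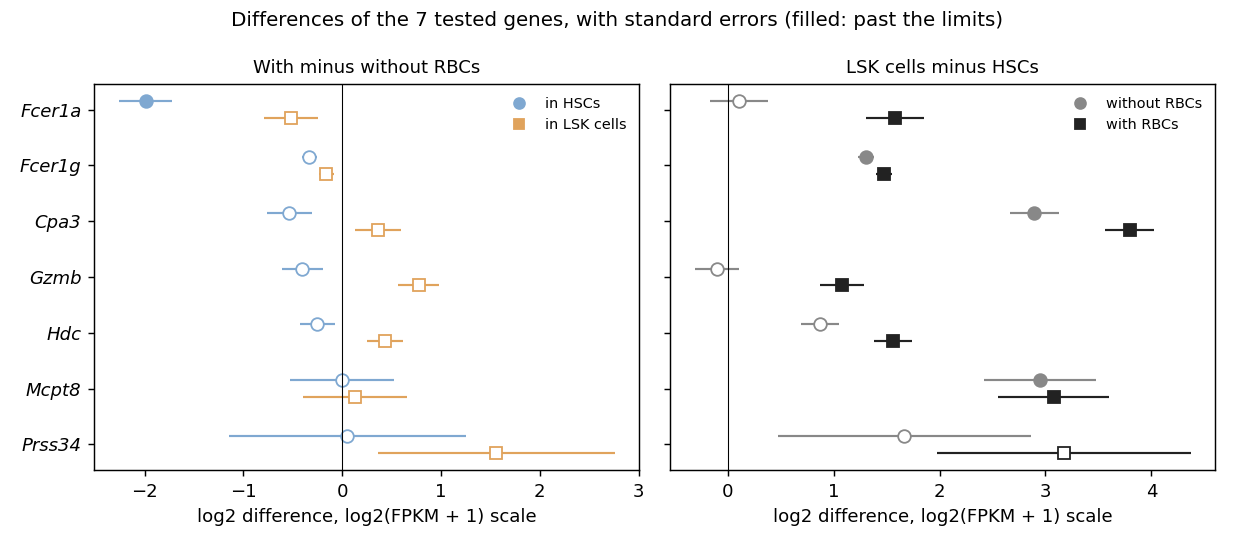
Differences of the 7 tested genes on the log2(FPKM + 1) scale, with standard errors from limma. The left panel gives cultures with minus without RBCs in HSCs (circles) and LSK cells (squares), and the right panel LSK cells minus HSCs without (circles) and with RBCs (squares); filled symbols passed the limits. Fcer1a in HSCs, at -1.99, is the filled symbol on the left, and on the right 3 genes without and 6 with RBCs are filled.

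The mast cell chymase Cma1 and 2 more of the 9 genes, Mcpt8 and Gzmb, share a cluster of protease genes on chromosome 14. Cma1 (chr14:55941451-55944675, minus strand) was at 0 in all 8 libraries. From Cma1 to Gzmb the cluster spans 320810 bases and 15 protein-coding genes, of which 10 were at 0 in all libraries and 2, Mcpt2 and Mcpt4, were above 0 in 1 library each, at 0.107 and 0.0979 FPKM. The remaining 3 were Mcpt8, Gzmb and Ctsg, the neighbour of Mcpt8 that encodes cathepsin G of myeloid granules. Ctsg was 0.0852 to 1.37 FPKM in the HSC libraries and 39.8 to 48.8 in the LSK libraries. Related proteases of a cluster can share reads, so low values of single genes there are uncertain.

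**Figure D3:**
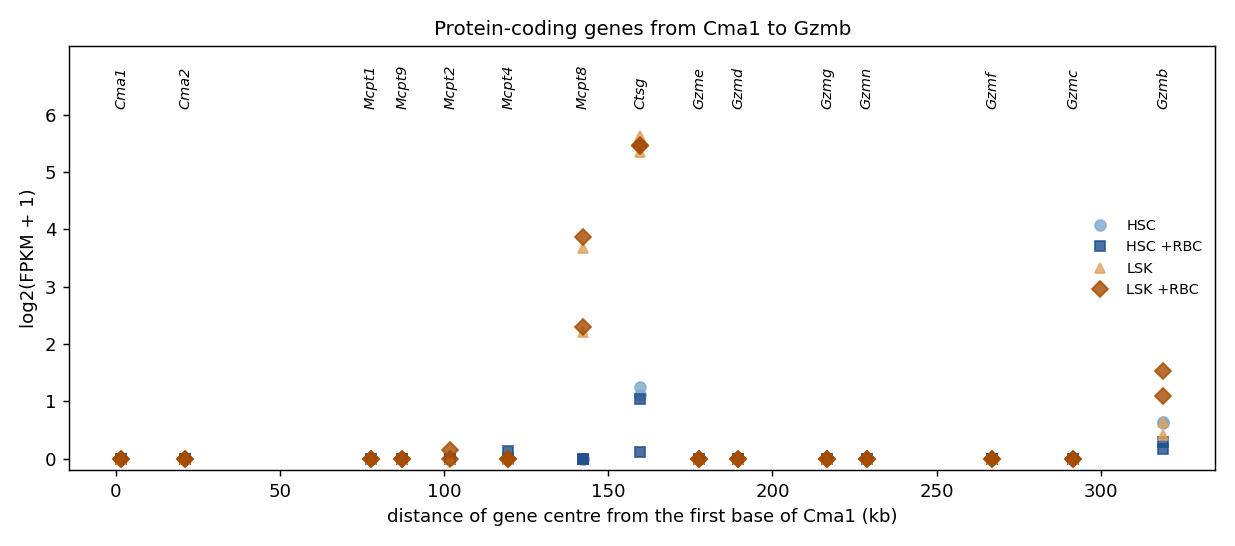
Levels of the 15 protein-coding genes from Cma1 to Gzmb as log2(FPKM + 1), against the distance of each gene's centre from the first base of Cma1 in kb. Each symbol is a library, with 2 for each of the 4 groups. Mcpt8, Ctsg and Gzmb stand above the others, which lie at or near 0.

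LSK cells were next compared with HSCs. Gzmb, Hdc, Mcpt8 and Prss34 reached 1 FPKM in LSK libraries alone, so that counts of called genes cannot stand for the 9. Without RBCs, 195 of 12003 genes (1.62%) were higher in LSK cells past the limits and 124 (1.03%) lower. Of the 7 listed genes tested, Fcer1g (1.31 ± 0.0754 on the log2 scale), Cpa3 (2.90 ± 0.232) and Mcpt8 (2.95 ± 0.525) were among the higher ones and none among the lower. In Fcer1g, Cpa3, Hdc, Mcpt8 and Prss34 both LSK libraries lay above both HSC libraries, as they did in 28.0% of all genes tested. Hdc, Mcpt8 and Prss34 passed the filter through LSK libraries alone, so nothing is read from that count. Hdc was 0.87 ± 0.179 and Prss34 1.67 ± 1.2, not past the limits, and Fcer1a and Gzmb were 0.11 ± 0.272 and -0.10 ± 0.208. Without the HSC library rich in Prg2 the differences were 1.40 for Fcer1g, 2.56 for Cpa3, 2.95 for Mcpt8 and 0.51 for Fcer1a.

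With RBCs, 313 genes (2.61%) were higher in LSK cells and 120 (1.0%) lower, and 6 of the 7 listed genes were among the higher ones. The fall of Fcer1a in HSCs with RBCs entered the choice of genes. Gzmb, Hdc and Mcpt8 passed the filter through LSK libraries alone, so nothing is read from that count. The differences were 1.58 ± 0.272 for Fcer1a, 1.48 ± 0.0754 for Fcer1g, 3.79 ± 0.232 for Cpa3, 1.08 ± 0.208 for Gzmb, 1.56 ± 0.179 for Hdc and 3.08 ± 0.525 for Mcpt8. Prss34 was 3.18 ± 1.2 and was not called. In all 7, both LSK libraries lay above both HSC libraries, as they did in 33.7% of all genes tested. Nothing is read from that count either, for the same reasons and because Prss34 too passed the filter through LSK libraries alone. The log2 values of Mcpt8 and Prss34, at or near 0 in HSCs, depend on the 1 FPKM added before the logarithm and are no bounds.

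In LSK cells, 108 genes (0.900%) were higher with RBCs past the limits and 13 (0.108%) lower, and none of the 7 listed genes was among them in limma, although 2 had an unadjusted p under 0.05. For the difference between the effects, 4 genes (0.0333%) were higher and 9 (0.0750%) lower, again with none of the 7 and with 4 at an unadjusted p under 0.05. Cpa3, Gzmb and Hdc lay below their controls in both libraries of HSCs with RBCs and above them in both libraries of LSK cells with RBCs. Among all genes, both libraries with RBCs lay below both without in 21.8% and above in 19.9% in HSCs, and above both without in 24.2% in LSK cells. The share of all genes with the joint pattern was not computed. Gzmb and Hdc passed the filter through LSK libraries alone. In HSCs with RBCs they rested on 2 and 4 and on 3 and 4 reads, so nothing is read from the 3 genes. Fcer1a and Fcer1g were below in both cell types, and in LSK cells 26.4% of all genes were below.

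**Figure D4:**
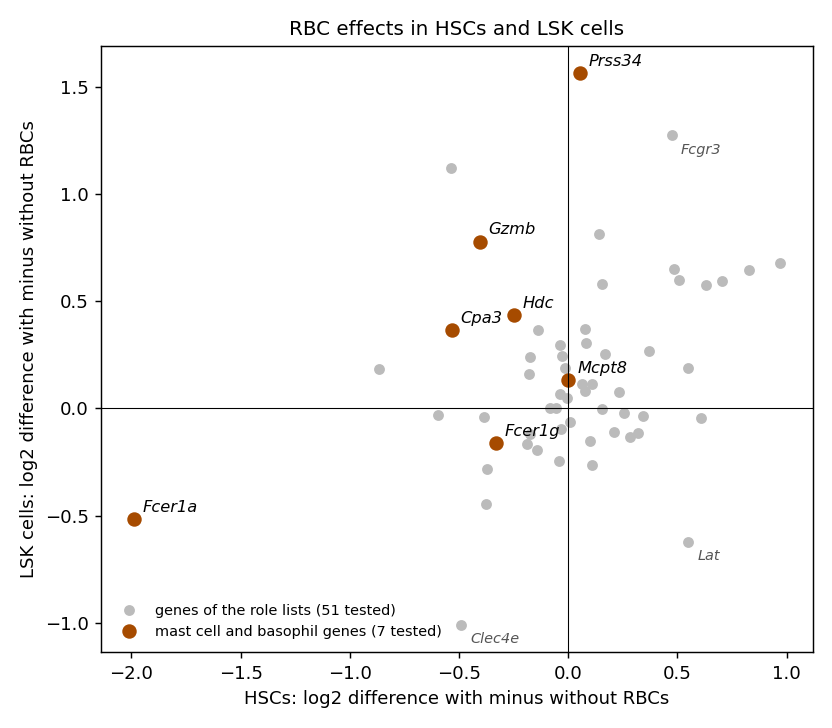
Difference with minus without RBCs in HSCs (horizontal) and in LSK cells (vertical), both on the log2(FPKM + 1) scale, for the 7 tested mast cell and basophil genes (large points) and 51 tested genes with related roles (grey). Fcer1a is farthest to the left at -1.99, while Cpa3, Hdc and Gzmb lie left of 0 and above 0, and Lat lies right of 0 and below 0.

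Other genes of the IgE receptor pathway and of mast cell and basophil biology were read from 6 lists of 75 genes in all, of which 51 were tested. They hold the kinases and adaptors below the receptor, surface receptors, granule proteins, transcription factors, lipid mediator enzymes and cytokines, and receptors that pair with the Fcer1g chain. With RBCs, 0 of the 51 were called in either direction in HSCs (limma, 19 at an unadjusted p under 0.05), where all genes gave 0.775%, and 1 of 51 was called in LSK cells, where all genes gave 1.01%. That gene was Clec4e, a lectin that signals through Fcer1g, at 15.2 and 15.3 FPKM in LSK cells and 8.52 and 5.82 with RBCs, and it fell by 1.01 ± 0.201 on the log2 scale (limma, adjusted p = 0.030). The call was lost with a pseudocount of 0.1, without the filter on low values, without the mean-variance trend, and without any 1 of the 4 LSK libraries. The median log2 difference with minus without RBCs was 0.21 in HSCs and -0.06 in LSK cells for the 13 tested signalling genes, -0.03 and 0.21 for the 10 surface receptors, -0.18 and 0.07 for the 6 granule genes, 0.11 and 0.11 for the 11 transcription factors, 0.11 and 0.05 for the 9 lipid mediator and cytokine genes, and -0.01 and 0.13 for the 2 Fcer1g partners, beside -0.01 and -0.01 for all genes tested.

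Kit, the receptor of stem cell factor on which mast cells depend, was among the most abundant of the surface receptors. It was 126 and 118 FPKM in HSCs, 97.6 and 90.8 in HSCs with RBCs, 135 and 137 in LSK cells, and 110 and 113 in LSK cells with RBCs. Its difference in HSCs was -0.37 ± 0.0668 (limma, adjusted p = 0.021) and stayed under 2-fold. Slc18a2, which loads histamine and other amines into vesicles, was higher in every library with RBCs, at 86.1 and 86.1 FPKM against 62.0 and 60.7 in HSCs and at 99.7 and 111 against 63.0 and 70.1 in LSK cells, also under 2-fold.

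Comparing LSK cells with HSCs, 8 of the 51 genes (15.7%) were higher and 1 (1.96%) lower without RBCs, where all genes gave 1.62% and 1.03%. With RBCs, 10 (19.6%) were higher and 0 lower (limma, 9 lower at an unadjusted p under 0.05), where all genes gave 2.61% and 1.0%. Ctsg had the largest of these differences, at 4.32 ± 0.254 without RBCs (adjusted p = 1.7e-05) and 4.88 ± 0.254 with RBCs (adjusted p = 6.5e-06). The Fcer1g partner Fcgr3, a low-affinity IgG receptor, was 0.415 to 3.07 FPKM in the HSC libraries and 8.57 to 28.5 in the LSK libraries. The other genes higher in both comparisons were Lat2, an adaptor below the IgE receptor, Alox5 of leukotriene synthesis, the integrin chain Itgb7, Clec4e, and the myeloid transcription factors Cebpa and Irf8. Cd200r3 and Il18r1 were called with RBCs and not without, but the difference between those comparisons was not called for either (limma, adjusted p = 0.19 and 0.23). Il4, a cytokine that basophils make, was lower in LSK cells without RBCs, at 6.46 and 7.36 FPKM against 18.2 and 24.9 in HSCs (log2 difference -1.5 ± 0.211). With RBCs it was 7.49 and 11.2 FPKM in LSK cells against 22.25 and 16.7 in HSCs. That difference of -0.995 ± 0.211 (limma, adjusted p = 0.0092) lay just under the 2-fold limit. For Il4 the difference between the 2 comparisons was not called (limma, adjusted p = 0.53). Without and with RBCs, the median log2 difference LSK cells minus HSCs was 0.39 and 0.07 for the signalling genes, 0.19 and 0.57 for the surface receptors, 0.08 and 0.28 for the granule genes, 0.12 and 0.10 for the transcription factors, 0.32 and -0.02 for the lipid mediator and cytokine genes, and 2.29 and 2.43 for the Fcer1g partners, beside 0.01 and 0.01 for all genes tested.

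Of the GATA factors, Gata2 was 65.0 to 78.3 FPKM in the HSC libraries and 52.5 to 58.6 in the LSK libraries, and the differences LSK cells minus HSCs were -0.33 ± 0.0902 without and -0.48 ± 0.0902 with RBCs, under 2-fold. Gata1 was 12.9 to 27.5 FPKM in the HSC libraries and 14.5 to 24.5 in the LSK libraries, which overlapped. It was higher in every library with RBCs (17.7 to 27.5 FPKM) than in any without (12.9 to 16.8). The difference with minus without RBCs was 0.63 ± 0.180 in HSCs and 0.57 ± 0.180 in LSK cells, neither past the limits.

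Across the 8 libraries, Cpa3, Hdc, Fcer1g and Mcpt8 had similar patterns. Pearson's r of log2(FPKM + 1) was 0.971 for Cpa3 and Hdc, 0.968 for Fcer1g and Cpa3, and 0.942 for Cpa3 and Mcpt8. For Fcer1a it was between 0.328 and 0.637 with the other 6 tested genes. The libraries fall into LSK cells and HSCs, so these values describe mainly that division, and no p-value is given. The tested genes most like Fcer1a were Calm2, a calmodulin gene (r = 0.972), Nfe2 (0.963) and Mfsd1 (0.961).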

How the data were processed

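RNA sequencing covered 8 libraries, 2 for each of 4 groups, grouped by the submitters' labels. The authors deposited 1 FPKM value per gene symbol and library, normalized for transcript length and library size. Per the submitters' processing notes, mm10 was the build and TopHat2 2.1.1, Bowtie2 2.2.8, SAMtools 0.1.18 and Cuffdiff 2.2.1 were used. The annotation is not given in the sources used here. FPKM values summed to 680942 to 752107 per library, and 14829 to 16551 genes were above 0. Counts were not among the files used. Relative depth, 0.886 to 1.13 of the first LSK library, came from the steps between low values: of 3659 genes with a mean under 1 FPKM and above 0 in at least 4 libraries, 80.7% gave whole multiples of 1 step (tolerance 0.03).

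The 12003 genes with at least 1 FPKM in at least 2 libraries were fitted together as log2(FPKM + 1) in limma 3.58.1 (R 4.3.3) with a mean-variance trend, 1 mean per group and 4 residual degrees of freedom. A gene was called at 2-fold or more with a p under 0.05 after Benjamini-Hochberg adjustment over all 12003 genes. Ms4a2 and Cma1 did not pass the filter. With 2 libraries against 2, an exact permutation test cannot go below p = 0.333 and was not used. Simulated data took the HSC and LSK means of these 12003 genes, with residual spreads shuffled among genes. In them 200 genes with a mean log2(FPKM + 1) above 2 in HSCs were changed 4-fold in HSCs with RBCs. Of these, 196 were called, and 1 unchanged gene was. Cpa3, Gzmb, Hdc, Mcpt8 and Prss34 lay below that level in HSCs, so the simulation does not cover them. No 2 libraries held identical values. Positions are from GENCODE M21 and promoters from RefSeq GRCm38.p6, each for the 9 genes, all matched by symbol. The 9 genes and the lists were chosen with earlier results of these data known. The text names the 9 genes, every list gene past the limits and up to 4 per list of the highest mean level, markers of the lineages, and the genes most like a listed one (3 each, of which those of Fcer1a are printed here). Alternatives covered the pseudocount, the filter, quantile scaling, the trend, the groups fitted, the fold limit, a replicate block and each library left out.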

Additional observations from a re-analysis of the deposited data

Results flagged for a closer look

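Lat, an adaptor below the IgE receptor that is best known from T cells and is also used by mast cells, was the 1 of the 51 genes tested from the related lists whose response to RBCs was called different between HSCs and LSK cells (limma, Benjamini-Hochberg adjusted p = 0.019 for the difference between the effects, 1.17 ± 0.143 on the log2 scale), where 0.0333% of all genes were called higher and 0.0750% lower. It was 14.6 and 15.4 FPKM in HSCs, 21.3 and 23.6 in HSCs with RBCs, 20.9 and 19.6 in LSK cells, and 13.3 and 12.3 in LSK cells with RBCs. It was thus higher in both HSC libraries with RBCs (0.55, adjusted p = 0.023) and lower in both LSK libraries with RBCs (-0.62, adjusted p = 0.013), each under 2-fold. The call on the difference was lost whichever library was left out, and also without the filter on low values, without the mean-variance trend and with a replicate block.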

How the results depend on the processing

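Of the counts of called genes, 175 of 196 under another setting and 140 with a library left out stayed within 1.5 times the value reported, and 21 and 20 did not. Without the filter on low values, Fcer1a kept its difference of -1.99 but 0 listed genes were called lower in HSCs with RBCs (limma, 18967 genes tested, 3 listed genes at an unadjusted p under 0.05), and with a pseudocount of 0.1 or 0.5 the difference was -3.62 or -2.59. With a library left out, 1 to 1 listed genes were called lower in HSCs with RBCs, 0 to 1 higher in LSK cells with RBCs (Prss34), 0 to 1 lower in the difference of effects (Prss34), and 3 to 4 and 6 to 6 higher in LSK cells than HSCs without and with RBCs. For the related lists with no fold limit, 6 genes were higher and 2 lower in HSCs with RBCs, 4 and 3 in LSK cells with RBCs, 17 and 5 in LSK cells against HSCs without RBCs, and 23 and 7 with RBCs. In LSK cells against HSCs with RBCs, 1 was lower with a pseudocount of 0.1, of 0.5 or quantile scaling, and without RBCs 2 were lower with 0.1. With that pseudocount 1 was higher in HSCs with RBCs and 0 lower in LSK cells with RBCs, where 0 were also lower without the filter or the trend and 1 was higher when only those groups were fitted. For the difference of effects, 0 were higher without the filter, without the trend, with a replicate block, and with any library left out (0 to 0). With a library left out, 0 to 1 list genes were lower in HSCs with RBCs, 0 to 1 higher and 0 to 1 lower in LSK cells with RBCs, 7 to 9 higher and 1 to 2 lower in LSK cells against HSCs without RBCs, and 9 to 10 higher and 0 to 1 lower with RBCs. The causes were not tested. Replicate numbers did not pair the libraries (deviation correlations between groups -0.067 to 0.095), and the replicate block changed no count of the listed genes. With 2 libraries a group, and 2 to 53 reads behind Fcer1a, small differences could not be resolved.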
